A study of Mus musculus with 2 samples.

Results

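The clusters described here are stretches of mm9 that carried reads of non-polyadenylated (NPA) RNA although they lay far from every annotated gene. They were chosen by position and by read number. Reads of both libraries were pooled, reads on the same strand that shared at least 1 base were joined, and clusters with 10 or more reads were kept if they were more than 5000 nt from every gene body of GENCODE M1 on either strand. Of 961373 clusters, 96817 had 10 or more reads, and 2295 of these (2.37%) lay that far from a gene. Another 2551 lay between genes but within 5000 nt of one, 4076 lay in introns and 87886 touched exons. One interval on chromosome 17, with 9 clusters and 116119 reads, was left out. Because read number was part of the rule, the number of clusters and the reads they hold are descriptions.

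The ESC library came from R1 mouse ESCs at passage 18, which were cultured with LIF on mitomycin C-treated MEFs. The NPC library came from NPCs derived from these cells, which spent 4 days as EBs without LIF and were then kept on PLO and fibronectin in ITS medium until day 7. Each cell type gave 1 library, so every ratio below compares 2 libraries, has no replicate check and carries no p-value. Intervals in brackets are 95% intervals for counting error only, and reads that are PCR copies of each other make them too narrow. In such bulk RNA, fewer cells of a type and less RNA per cell cannot be told apart.

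The libraries held 4271306 reads (ESC) and 4399729 reads (NPC), so 1 read is worth 0.234 and 0.227 RPM, that is, reads scaled to a library of 1000000. All 11 pluripotency markers were higher in the ESC library, and their median log2 ratio (NPC over ESC) was -1.43. Of the 9 neural progenitor markers measured 6 were higher in the library labelled NPC and their median log2 ratio was 0.82, but their reads were few, with 289 in NPC against 276 in ESC. Most of these came from Nes (66 in ESC and 121 in NPC), Msi1 (99 and 60) and Tubb3 (109 and 87), and Olig2 was at 0 in both. It held 54248 reads of 12 extraembryonic endoderm markers against 2302 in the ESC library, all 12 being higher, which is 12330 RPM against 539. The 8 fibroblast markers, which feeder cells could bring in, had 172 reads in ESC and 223 in NPC. What part these differences in cell makeup have in the ratios of the clusters was not tested.

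Space between genes is not empty of gene-like sequence. When an mRNA is copied back into DNA and inserted elsewhere, it leaves an intronless retrocopy, and abundant mRNAs such as those of ribosomal proteins and glycolytic enzymes have left many of them. Pieces of mitochondrial DNA are likewise found in nuclear chromosomes. The tRNA genes, transcribed by RNA polymerase III, are short, carry their promoter inside the transcribed part and are listed by RepeatMasker. Genuine transcripts can also lie there, either unannotated non-coding RNAs or RNA that runs on past the annotated end of a gene.

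The sequences below show the kinds of cluster that were found, all from mm9 and written 5′ to 3′ on the strand of the cluster. The first pair shows how reads tell a copy from the mRNA it resembles. It is a stretch of the cluster at chr16:3730572-3730964 (+), a copy of Tdgf1, the Nodal co-receptor of pluripotent cells, beside the coding transcript of Tdgf1. The capital marks the base that differs.
Tdgf1 copy, chr16:3730608-3730703 (+): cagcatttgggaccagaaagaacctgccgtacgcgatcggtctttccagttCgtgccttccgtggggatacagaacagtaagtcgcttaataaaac
Tdgf1 transcript: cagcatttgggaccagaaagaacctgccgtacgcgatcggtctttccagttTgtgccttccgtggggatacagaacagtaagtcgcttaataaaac
Reads lying over that base carried the base of the copy 226 times in ESC and 20 times in NPC, and that of the transcript 1 time in ESC and 0 times in NPC. The same comparison is shown for Zfp42 (Rex1), a zinc finger protein of pluripotent cells, whose copy lies at chr15:93509513-93509792 (-). This copy was chosen after its values were seen.
Zfp42 copy, chr15:93509591-93509686 (-): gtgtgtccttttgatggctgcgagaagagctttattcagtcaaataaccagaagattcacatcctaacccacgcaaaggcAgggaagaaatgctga
Zfp42 transcript: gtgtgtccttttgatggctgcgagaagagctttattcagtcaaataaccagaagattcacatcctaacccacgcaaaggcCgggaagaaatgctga
Here 43 reads in ESC and 24 in NPC had the base of the copy, and 0 and 0 had that of the transcript.

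The next pair shows the exon junction that a retrocopy keeps. Rpl23 is a protein of the large ribosomal subunit. The copy at chr6:66825263-66825758 (-) runs straight through the junction of exons 2 and 3, whose neighbouring bases are in capitals, while in the gene the same bases are followed by an intron, in capitals.
Rpl23 copy, chr6:66825611-66825670 (-): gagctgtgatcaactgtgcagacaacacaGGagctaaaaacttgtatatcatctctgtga
Rpl23 gene, chr11:97643090-97643149 (-): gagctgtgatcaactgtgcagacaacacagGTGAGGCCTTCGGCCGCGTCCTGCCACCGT
Over this junction lay 262 reads in ESC and 513 in NPC. A read of spliced Rpl23 mRNA can be placed at the copy in full but not in the gene.

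The cluster with the most reads resembles mitochondrial RNA. The bases that differ from the mitochondrial genome are in capitals.
Nuclear copy, chr10:95540214-95540309 (-): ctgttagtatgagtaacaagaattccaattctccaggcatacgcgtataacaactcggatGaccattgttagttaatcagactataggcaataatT
Mitochondrial genome, chrM:1731-1826 (+): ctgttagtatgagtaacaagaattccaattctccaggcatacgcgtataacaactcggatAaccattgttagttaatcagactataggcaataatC
Another kind, called repeat edge here, has reads that the files list with intervals shorter than their 48 nt of sequence. The cluster at chr2:122201302-122201321 (-) is 20 nt wide and begins after the first 10 bases shown. The bases that follow it hold a B box, the internal promoter element of tRNA genes (GTTCGANTC, in capitals).
Repeat edge, chr2:122201222-122201331 (-): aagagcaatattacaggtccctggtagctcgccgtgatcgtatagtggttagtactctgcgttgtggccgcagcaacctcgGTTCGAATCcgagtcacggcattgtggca
The last kind matches no annotated transcript, and its reads were mostly unique in mm9. The example had 29 reads in ESC and 4 in NPC.
Unmatched cluster, chr13:98278539-98278719 (+): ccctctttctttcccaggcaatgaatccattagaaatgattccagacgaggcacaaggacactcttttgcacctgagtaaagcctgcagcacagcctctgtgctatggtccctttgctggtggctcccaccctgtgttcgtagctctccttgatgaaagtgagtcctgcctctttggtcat

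The far intergenic clusters were small. Their median width was 85 nt (83 to 87), with quartiles of 65 and 122 nt and a range of 1 to 711 nt. Clusters nearer to genes had a median of 118 nt, those in introns 112 nt and those in exons 132 nt. Since a read is 48 nt, the median cluster is less wide than a pair of reads laid end to end, and the 3.92% that were narrower than 48 nt hold only reads listed with intervals shorter than their 48 nt. Whether the missing part was removed as repeat sequence was not tested. The median distance to the nearest gene was 35035 nt, the range was 5009 to 974041 nt, and 525 clusters were more than 100000 nt away. The plus strand held 1325 of them and the minus strand 970.

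They held 77820 reads in ESC and 75035 in NPC, which is 1.82% (1.81 to 1.83) and 1.71% (1.69 to 1.72) of the libraries. The median cluster had 23 pooled reads, 11 in ESC and 13 in NPC, or 29.7 and 34.4 RPKM, the RPM per 1000 nt of cluster. Together, the top 10 by reads accounted for 14.4%. In 18 clusters the ESC library had 0 reads and in 9 the NPC library had 0, where a count of 0 allows up to 3 reads. By their listed intervals, the reads began at 18811 distinct positions in ESC and 19629 in NPC. In 666 clusters more than 50% of the intervals began at 1 position.

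Most of these reads could have been placed elsewhere. Only 18.3% (18.0 to 18.5) of them in ESC and 20.9% (20.6 to 21.2) in NPC had a 48-nt sequence that occurs once in mm9, against 78.2% and 83.2% of all reads of these libraries. Another 74.2% and 71.7% occurred at several places. In 1246 clusters (54.3%) no read was unique, and in 528 (23.0%) most reads were. Pooled over the libraries, the unique share was 19.6% far from genes, 40.4% within 5000 nt of them, 54.6% in introns and 81.0% in exons. With 1 library per cell type these differences have no test.

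The ratio of NPC to ESC had a median near even, whose sign changed with the processing. The median log2 ratio, with 1 read added in each library, was 0.12 (0.05 to 0.17) over the far clusters, against 0.39 nearer to genes, 0.00 in introns, 0.44 in exons and 0.43 over all clusters. More than 2-fold higher in NPC were 497 far clusters (21.7%), where 29.3% of all 96817 clusters passed the same fold. More than 2-fold higher in ESC were 411 (17.9%), where 10.7% of all clusters did. These counts depend on the scaling and on how reads are counted. With the median ratio of all clusters set to even, which shifts every log2 ratio down by 0.44, 292 were higher in NPC and 651 in ESC, where 18.6% and 18.1% of all clusters were. With each start position counted once, 161 were higher in NPC and 292 in ESC, and with unique reads only, 187 and 256. For these 2 ways of counting the shares of all clusters were not computed, so the counts cannot be set against a background. With unique reads only, the 1246 far clusters without such a read cannot pass the fold in either direction. The cluster ratios ranged from -4.57 to 4.60 on the log2 scale, and among the 370 clusters with 50 or more reads in a library, 54 (14.6%) were more than 2-fold higher in NPC and 86 (23.2%) in ESC, where 31.4% and 11.3% of all clusters that deep were.

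**Figure D1:**
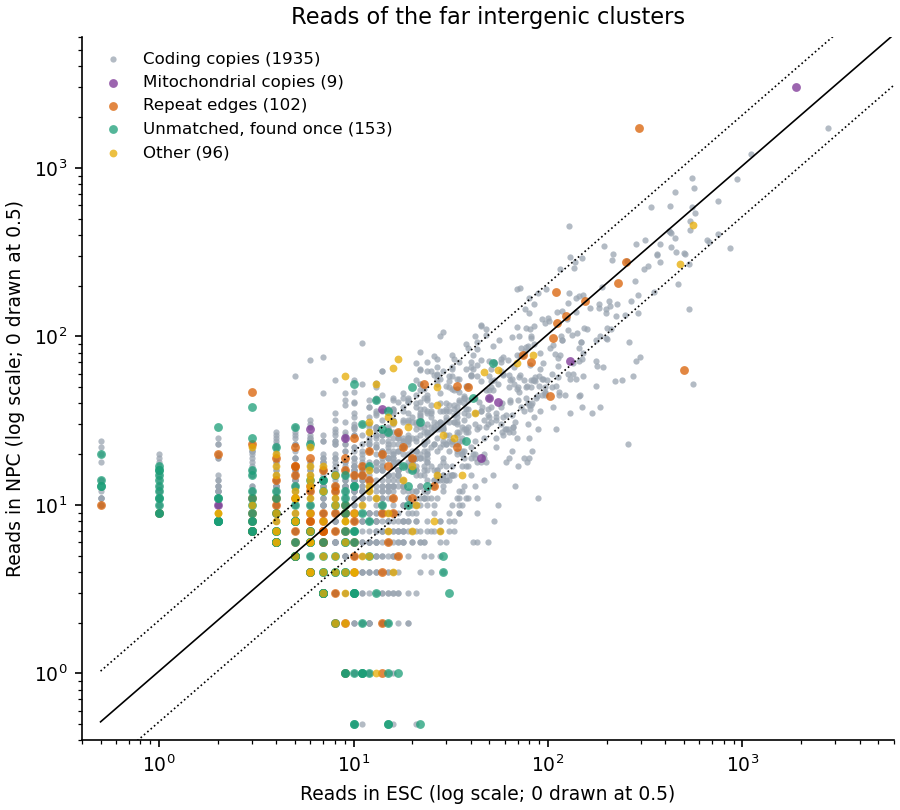
Reads of each far intergenic cluster in ESC (horizontal) and NPC (vertical), both on log scales, with 1 point per cluster coloured by kind. The solid line marks equal RPM and the dotted lines a 2-fold difference, and most of the 1935 coding copies lie between the dotted lines while a repeat edge with 293 and 1726 reads lies above them.

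By sequence the clusters fell into few kinds. A cluster was called a copy when at least 90% of it aligned at 95% identity or more to an annotated transcript. Since 1 inserted copy can carry several clusters, numbers of copies below count clusters, not insertions. Copies of coding transcripts numbered 1935 (84.3%, 82.8 to 85.8) and held 88.8% of the cluster reads in ESC and 84.7% in NPC. The rest were 153 unmatched clusters whose reads were mostly unique, 102 repeat edges, 48 partial matches, 35 unmatched clusters at repeated sequence, 13 copies of other transcripts and 9 copies of mitochondrial DNA. Of all far clusters 85.3% matched an annotated transcript along their length, against 40.4% of clusters nearer to genes and 23.7% in introns.

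**Figure D2:**
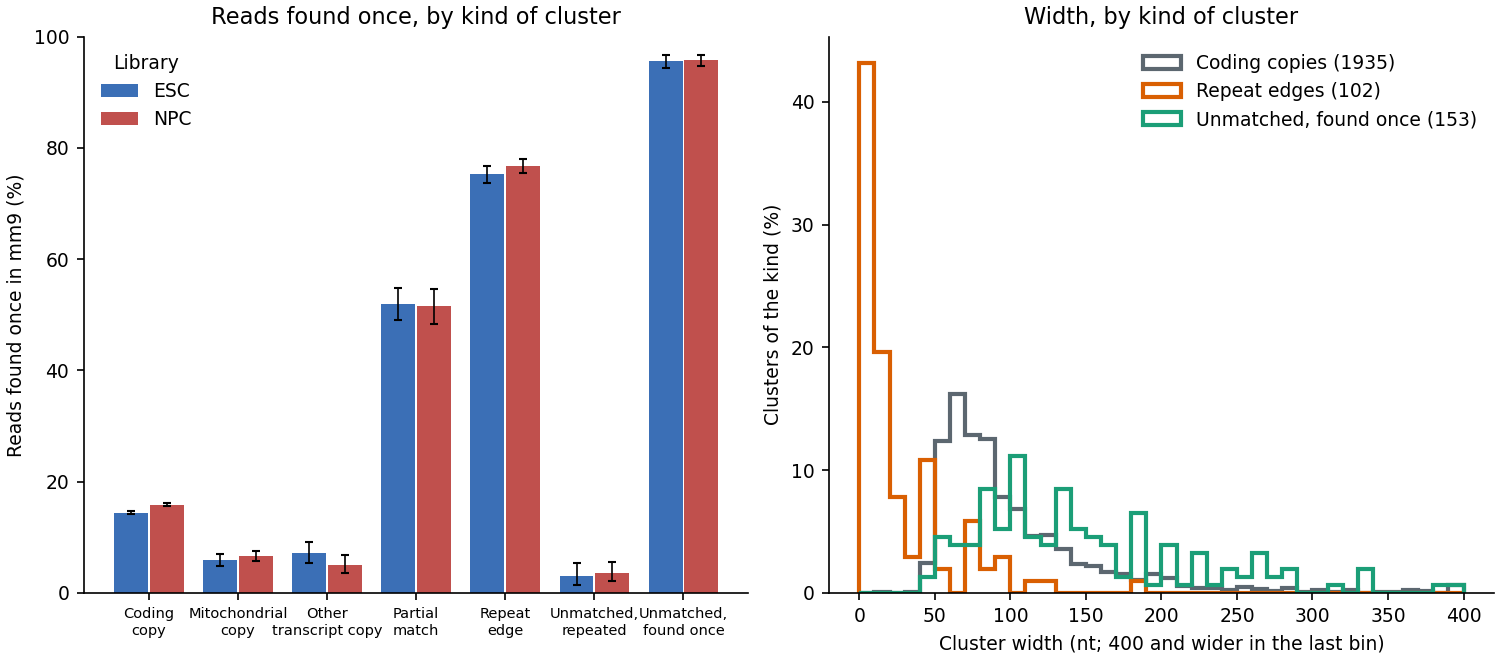
Left, percent of reads whose 48 nt occur once in mm9, for each kind of far intergenic cluster and library, with exact 95% intervals. Right, distribution of cluster widths in nt for the 3 largest kinds, with coding copies peaking below 100 nt, repeat edges mostly under 20 nt and unmatched clusters spread to 400 nt.

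The coding copies resembled 573 genes, 242 of them with a single cluster. They ran in the sense of the mRNA in 99.2% of cases, and 15 ran antisense. Identity to the transcript was 100% in 1267 of them. Their median width was 84 nt, and only 14.4% of their ESC reads and 15.8% of their NPC reads were unique. In the ESC library 93.0% and in the NPC library 93.3% of the reads in copies matched an annotated transcript exactly over all 48 nt. Where the copy has the same bases, the source of such reads cannot be told apart. How many of them also fit the copy exactly was not counted, and the alignment allowed mismatches.

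Reads across exon junctions were frequent in the copies. They made up 33.8% of the copies' reads in ESC and 32.9% in NPC, and 13.5% of all 48-nt windows along 22741 coding transcripts cross a junction. These are unlike measures. A read counted if it crossed a junction of any annotated transcript. The windows came from the longest transcript of each coding gene and were not weighted by reads. Over whole classes of clusters the share was 29.3% far from genes, 8.18% nearer to genes, 15.6% in introns and 5.09% in exons. In 618 copies most reads crossed a junction, and in 143 all did. The reads of those 618 were unique more often (32.1%) than the reads of the 1002 copies with no such read (5.42%). Reads that fit both a copy and an exon of the gene cannot be unique, whereas reads across a junction can be. The definitions thus largely fix this difference. A genome aligner can place a read of spliced mRNA that spans a junction in full only where an intronless copy exists. The Rpl23 copy shown above is an example, with 1102 reads in ESC and 1202 in NPC. Of these, 1390 were unique, 1602 lay across a junction and 9 were unique reads that fit no annotated transcript. The ratio of NPC to ESC of this copy was 1.06 (0.975 to 1.15), a difference within counting error. This ratio did not hold along the whole cluster, as the junction printed above had 262 reads in ESC and 513 in NPC.

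Gapdh, a glycolytic enzyme, had the most clusters, 96 on 14 chromosomes, with 3140 reads in ESC and 1429 in NPC, while reads on the exons of the annotated gene numbered 381 and 180. Hspa8, a constitutive heat shock chaperone, had 46 clusters with 5514 and 7337 reads, beside 7971 and 9596 on its gene. Eef1a1, which brings aminoacyl-tRNA to the ribosome, had 30 clusters with 8528 and 5820 reads, beside 22110 and 13575 on its gene. Rpsa of the small ribosomal subunit had 25 clusters (1011 and 693 reads) and Acaca, acetyl-CoA carboxylase, 24 (329 and 239). Odc1, ornithine decarboxylase, had 18 clusters with more reads in NPC (431 and 891), and Pkm2, pyruvate kinase, 16 with more in ESC (1482 and 560). The gene itself had more reads than all its far clusters together in 265 of the 292 genes with at least 50 reads at each.

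The copies had ratios like those of their genes. Over these 292 genes the log2 ratio of the summed copies and that of the gene's own exons correlated with a Pearson r of 0.887 and a Spearman rho of 0.880, as a description across genes that share both libraries and, in part, the same RNA. The median difference of copies minus gene was 0.06 (-0.03 to 0.12), 282 of the 292 genes differed by less than 1 on the log2 scale, and 249 had the same sign. Me1, malic enzyme of the cytosol, had a log2 ratio of 3.04 over 8 clusters on 1 chromosome (36 and 313 reads) and 2.88 over its gene (76 and 583). Tdgf1 had -3.46 over 3 clusters (823 and 76 reads) and -2.87 over its gene (1061 and 149).

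**Figure D3:**
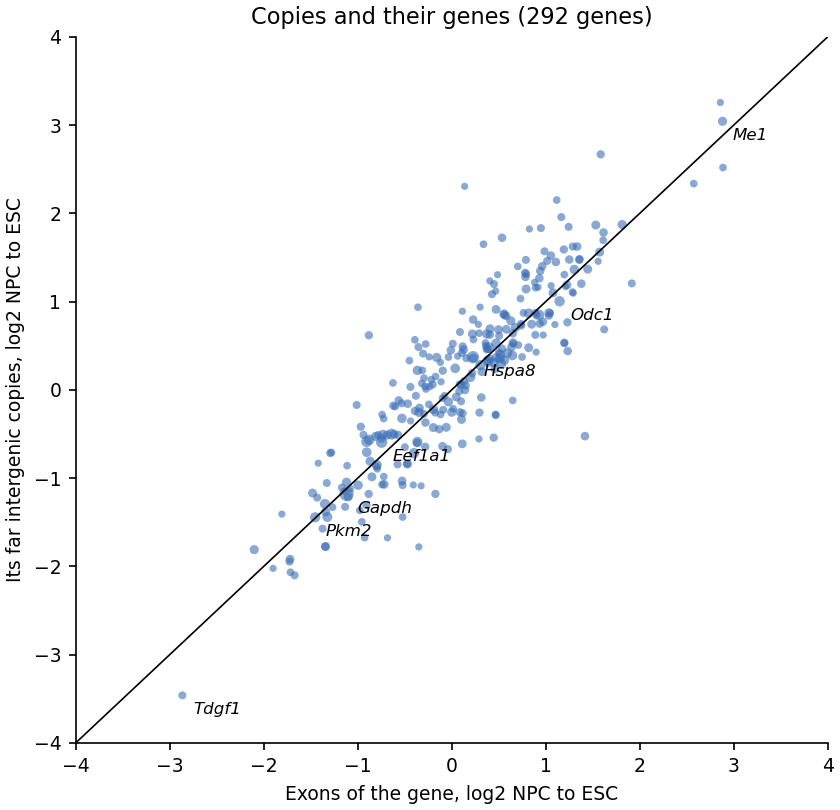
Log2 NPC to ESC ratio for the far intergenic copies of a gene, summed (vertical), against that of the exons of the gene (horizontal), with 1 point for each of 292 genes and point size growing with the number of clusters. The diagonal marks equal ratios, and most genes lie along it from Tdgf1 at the lower left to Me1 at the upper right.

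Of the 10 clusters with the most reads, 8 were coding copies. A copy of Eef1a1 at chr13:15210899-15211084 (+) had 2752 reads in ESC and 1715 in NPC, a ratio of 0.605 (0.569 to 0.643). A second one at chr13:15211270-15211525 (+) had 941 and 858 reads. Copies of Hspa8 at chr1:47716229-47716349 (+), chr6:75246216-75246610 (-) and chr14:93002238-93002372 (-) had 549 and 871, 564 and 759, and 448 and 715 reads, all higher in NPC. A copy of Ptma, prothymosin alpha, at chr3:124088808-124089336 (+) had 752 and 638 reads, and a copy of Rps26 at chr12:48913947-48914110 (+), a protein of the small ribosomal subunit, had 865 and 335. The Rps26 copy was 2.66-fold (2.34 to 3.03) higher in ESC. The widest cluster, 711 nt at chr17:16806434-16807144 (-), matched the cell cycle factor Mybl2 in part and had 478 reads in ESC and 267 in NPC.

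Among clusters with 50 or more reads in a library, those with the highest ratio were mostly coding copies in both directions. Copies of Me1 at chr13:62915678-62915875 (+) and chr13:62915434-62915574 (+) had 6 and 72, and 7 and 75 reads, with ratios of 11.7 (5.10 to 32.8) and 10.4 (4.81 to 26.8). A copy of Rragc, a Rag GTPase of nutrient sensing, at chr17:17006012-17006066 (+) had 5 and 58 reads, with 79.4% of them at 1 start. A copy of Pabpc1, the poly(A)-binding protein, at chr3:59235695-59235775 (+) had 11 and 91 reads, a ratio of 8.03 (4.28 to 16.7). Summed over all 9 Pabpc1 clusters the reads were 815 in ESC and 1109 in NPC, and on the gene 1268 and 1868. In the other direction, the Tdgf1 copies at chr16:3730437-3730571 (+) and chr16:3730572-3730964 (+) had 258 and 23, and 556 and 52 reads, being 11.6-fold (7.53 to 18.6) and 11.0-fold (8.28 to 14.9) higher in ESC. Copies of the glycolytic genes Aldoa (89 and 11 reads at chr3:57166559-57166616), Gapdh (55 and 10 at chr14:103769741-103769910), Pkm2 (185 and 38 at chr12:31704461-31704525) and Eno1 (275 and 58 at chr3:130632134-130632220) were 4.88-fold to 8.33-fold higher in ESC. These clusters were picked for their low ratios. Over all far clusters of these genes, in this order, the log2 ratios were -1.92, -1.18, -1.445 and -1.29. On the exons of the genes they were -1.72, -1.12, -1.454 and -1.35.

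Some copies could be told from their gene by their bases. Reads that fit the copy but no annotated transcript made up 3.65% of the copies' reads in ESC and 3.59% in NPC, and 112 copies of 81 genes had 10 or more of them. For 69 such clusters, of 52 genes, the reads over the differing bases were compared with reads carrying the bases of the transcript at the same place. In 33 clusters more reads had the bases of the copy, and in 36 more had those of the transcript. In 22 clusters no read had the bases of the transcript, although the gene had more exonic reads than there were reads with the bases of the copy in all 22.

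The Zfp42 copy had 173 reads with its own bases in ESC and 98 in NPC, against 8 and 5 with the bases of the transcript, while the exons of Zfp42 held 707 and 289 reads. The Tdgf1 copy had 215 and 21 against 2 and 0. This comparison leaves out reads across exon junctions, which the count over the stretch printed above includes. A copy of Zfp106, a zinc finger protein, at chr16:27843541-27843612 (-) had 109 and 44 against 0 and 0, with 2410 and 1791 reads on the gene. For Eif3a, a subunit of a translation initiation factor, the copy at chr1:49612540-49612744 (-) had 15 and 34 against 0 and 0. The reverse held for a copy of Eef1a1 at chr1:130417474-130417742 (-), with 28 and 17 reads against 5548 and 3792, and for a copy of Gapdh at chr16:50111556-50111620 (+), with 44 and 12 against 497 and 123. The transcript bases are those of mm9, and R1 cells are not of the strain of that genome. Whether the gene of R1 cells carries the bases of the copy was not tested. These clusters were chosen for having such reads.

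**Figure D4:**
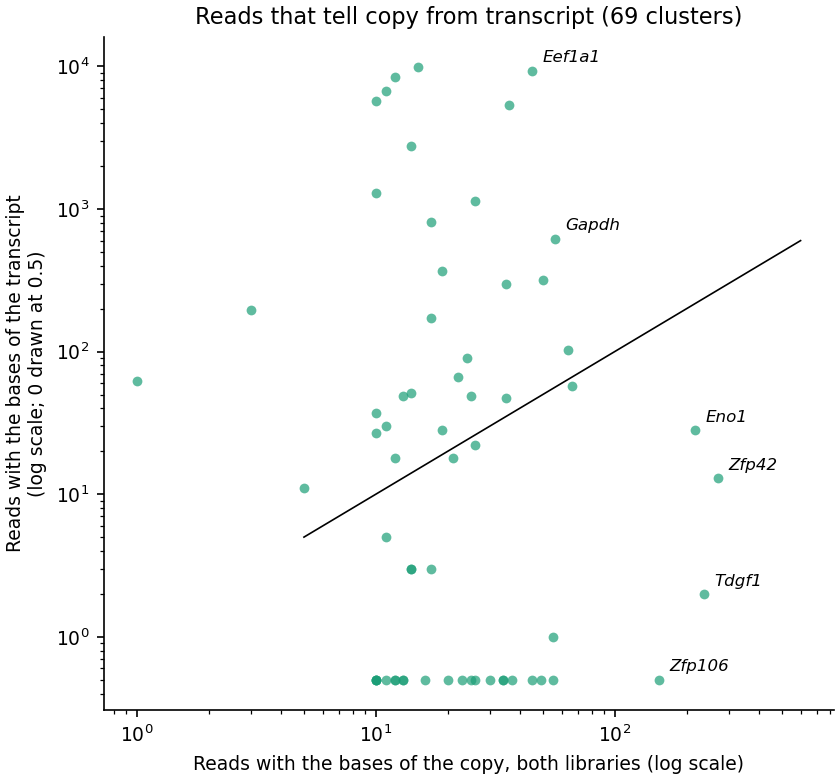
Reads of both libraries that carry the bases of the far intergenic copy (horizontal) against reads that carry those of the annotated transcript at the same place (vertical), on log scales, for 69 clusters. Points under the diagonal have more reads of the copy, and the 22 clusters with no read of the transcript are drawn at the bottom.

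The 9 mitochondrial copies had 2206 reads in ESC and 3286 in NPC, of which 91.3% and 91.4% matched the mitochondrial genome exactly. The cluster at chr10:95540173-95540518 (-), 346 nt wide with 7 bases that differ, held 1895 and 3012 of them and was 1.54-fold (1.46 to 1.64) higher in NPC. Of its reads 1713 in ESC and 2734 in NPC fit both genomes exactly, 126 and 214 fit the nuclear copy only, and 0 and 0 fit the mitochondrial genome only. The authors had filtered out the reads that were placed on the mitochondrial genome. The other 8 clusters had 12 to 201 reads.

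The 102 repeat edges were clusters that were not copies and had more than 50% of their reads listed with intervals shorter than 48 nt. No repeat annotation was used here, so that they border repeats was not tested. They had 2976 reads in ESC and 4266 in NPC, of which 75.3% and 76.8% were unique over their 48 nt, and widths of 1 to 187 nt with a median of 13 nt. In 89 of them more than 50% of the listed intervals began at 1 position. That is the start of the read itself only where its 5′ end was not cut. Within the cluster or 120 nt on either side, on the same strand, 25 edges (24.5%, 16.5 to 34.0) had a B box, and 0 had one on the opposite strand. The same letters stood beside 0.137% of the other far clusters, 0.980% of the clusters nearer to genes and 0.368% of those in introns. A family named below after a tRNA had these letters at 0 of its 3 edges, so the 25 are not all the tRNA-like edges. Of the 25, 12 lay on chromosome 13. Together they had 635 reads in ESC and 2302 in NPC, a ratio of 3.52 (3.22 to 3.85), which fell to 1.64 (1.43 to 1.87) without the edge at chr2:122201302-122201321, with 342 and 576 reads left. That edge alone had 293 and 1726 reads, 5.72-fold (5.05 to 6.50) more in NPC. Leaving it out was decided after its values were seen.

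The reads of the edges fell into families that share a stretch of sequence. The stretches of 4 of the 9 families with 3 or more edges are shown as examples. Whether the families not shown also resemble known small RNAs was not tested. The family with the most edges had 17 on 5 chromosomes, 13 of them on the minus strand of chromosome 6, and the reads of the other 3 shown begin like tRNA genes for glycine, histidine and initiator methionine, named here from general knowledge.
Family of 17 edges: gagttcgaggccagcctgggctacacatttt
Family of 5 edges, glycine: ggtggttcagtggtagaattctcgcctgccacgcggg
Family of 4 edges, histidine: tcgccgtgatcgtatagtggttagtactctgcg
Family of 3 edges, methionine: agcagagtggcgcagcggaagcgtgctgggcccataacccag
In the family of 17 edges the 13 on chromosome 6 lay between 47600753 and 47713262, and 9 of the 12 gaps between neighbours were 4000 to 5500 nt. The stretch of the family of 17 resembles the end of 4.5SH RNA, a rodent RNA polymerase III transcript with tandem genes, also named from general knowledge. This family had 790 reads in ESC and 752 in NPC, a ratio of 0.924 (0.835 to 1.02). The glycine family had 52 and 43 reads, a ratio of 0.803 (0.523 to 1.23), and the methionine family 30 and 33, a ratio of 1.07 (0.631 to 1.81), both within counting error of even. The histidine family, which holds the chromosome 2 edge, had 436 and 1987 reads, a ratio of 4.42 (3.99 to 4.92). Of the families not shown, one of 7 edges on 7 chromosomes had 151 and 158 reads, a ratio of 1.02 (0.808 to 1.28). The other 4 had 3 edges each. Among these, 3 were higher in NPC beyond counting error, with 10 and 33 reads (3.20, 1.54 to 7.29), 20 and 44 (2.14, 1.23 to 3.83) and 22 and 43 (1.90, 1.11 to 3.33), and the last had 74 and 92, a ratio of 1.21 (0.879 to 1.66). The families with 20 and 44 and with 74 and 92 reads had a B box at all 3 of their edges, and the families with 10 and 33 and with 22 and 43 at 0. Of the families shown, the glycine one had a B box at 4 of 5 edges and the histidine one at all 4. The methionine family had one at 0 of 3 edges, and the family of 17 at 0.

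Of the 102 edges, 21 (20.6%) were more than 2-fold higher in NPC and 13 (12.7%) in ESC, beside the 29.3% and 10.7% of all clusters. The edge with the most reads among those 13 was at chr11:102429361-102429408 (+), with 498 reads in ESC and 63 in NPC, 8.14-fold (6.26 to 10.8) higher in ESC. All its listed intervals began at 1 position, but only 318 of its reads shared the same 48 nt.

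The 153 unmatched clusters with mostly unique reads held 1288 reads in ESC and 1635 in NPC, of which 95.6% and 95.8% were unique, though 9 of the clusters had another place in mm9. They were wider than the copies, with a median of 133 nt, and nearer to genes, with a median distance of 8484 nt against 40273 nt for the copies. The median log2 ratio was 0.31 (-0.04 to 0.54), with 46 (30.1%) more than 2-fold higher in NPC and 34 (22.2%) in ESC, beside the 29.3% and 10.7% of all clusters. For 124 of them the nearest gene upstream was on the same strand, and for 95 that was also the nearest gene of all. The same held for 977 and 435 of the 1935 copies. AG stood just before 5.23% of these unmatched clusters and GT just after 3.92%, against 5.37% and 5.79% of the copies. Cluster ends are where reads stop and need not be exon ends. These shares therefore do not show whether the clusters are spliced. RefSeq start sites were placed on mm9 by their sequence, and 22 of the clusters lay within 10000 nt of one whose gene name is absent from M1.

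Of these clusters 20 groups formed chains with no other kind of cluster among them. The rule left out clusters within 5000 nt of a gene, so a chain may begin nearer to its gene than the distances given. The chain with the most clusters, 14, was at chr6:86946963-86952846 (+). Its first kept cluster lay 5105 nt downstream of Aak1, a kinase of clathrin coats, on the same strand. This chain had 41 reads in ESC and 229 in NPC, a ratio of 5.42 (3.88 to 7.76), and 13 of the 14 clusters were more than 2-fold higher in NPC. The exons of Aak1 had 61 and 176 reads, a log2 ratio of 1.47 against 2.41 for the chain. Downstream of Bmpr2, a BMP receptor, 6 clusters at chr1:59932758-59934334 (+) had 11 and 118 reads, a ratio of 10.4 (5.61 to 21.4), and the gene had 126 and 426. Downstream of Sesn3, a stress-response sestrin, 6 clusters at chr9:14136268-14137451 (+) had 40 and 133 reads, a ratio of 3.23 (2.25 to 4.72), and the gene 115 and 312.

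Other chains had more reads in ESC. At chr13:98272301-98282429 (+), 9 clusters had 147 reads in ESC and 20 in NPC, being 7.57-fold (4.73 to 12.8) higher in ESC, with all 9 clusters higher in ESC. The nearest upstream gene of M1 was Gm11019 (1072 and 461 reads), 5341 nt away. The nearest RefSeq start upstream was that of Lncenc1, a non-coding RNA whose name is absent from M1, 67376 nt away. At chr3:41279584-41286246 (-), 7 clusters downstream of C430002E04Rik had 94 and 16 reads, being 6.05-fold (3.54 to 11.0) higher in ESC. In other chains a RefSeq start whose name is absent from M1 stood just upstream, as with Fignl2, 108 nt before 7 clusters at chr15:100881583-100884722 (-) with 60 and 133 reads, and Chaserr, 1108 nt before 3 clusters at chr7:80696531-80702173 (-) with 8 and 25 reads. Chains of this kind beyond the first were chosen after their values were seen.

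**Figure D5:**
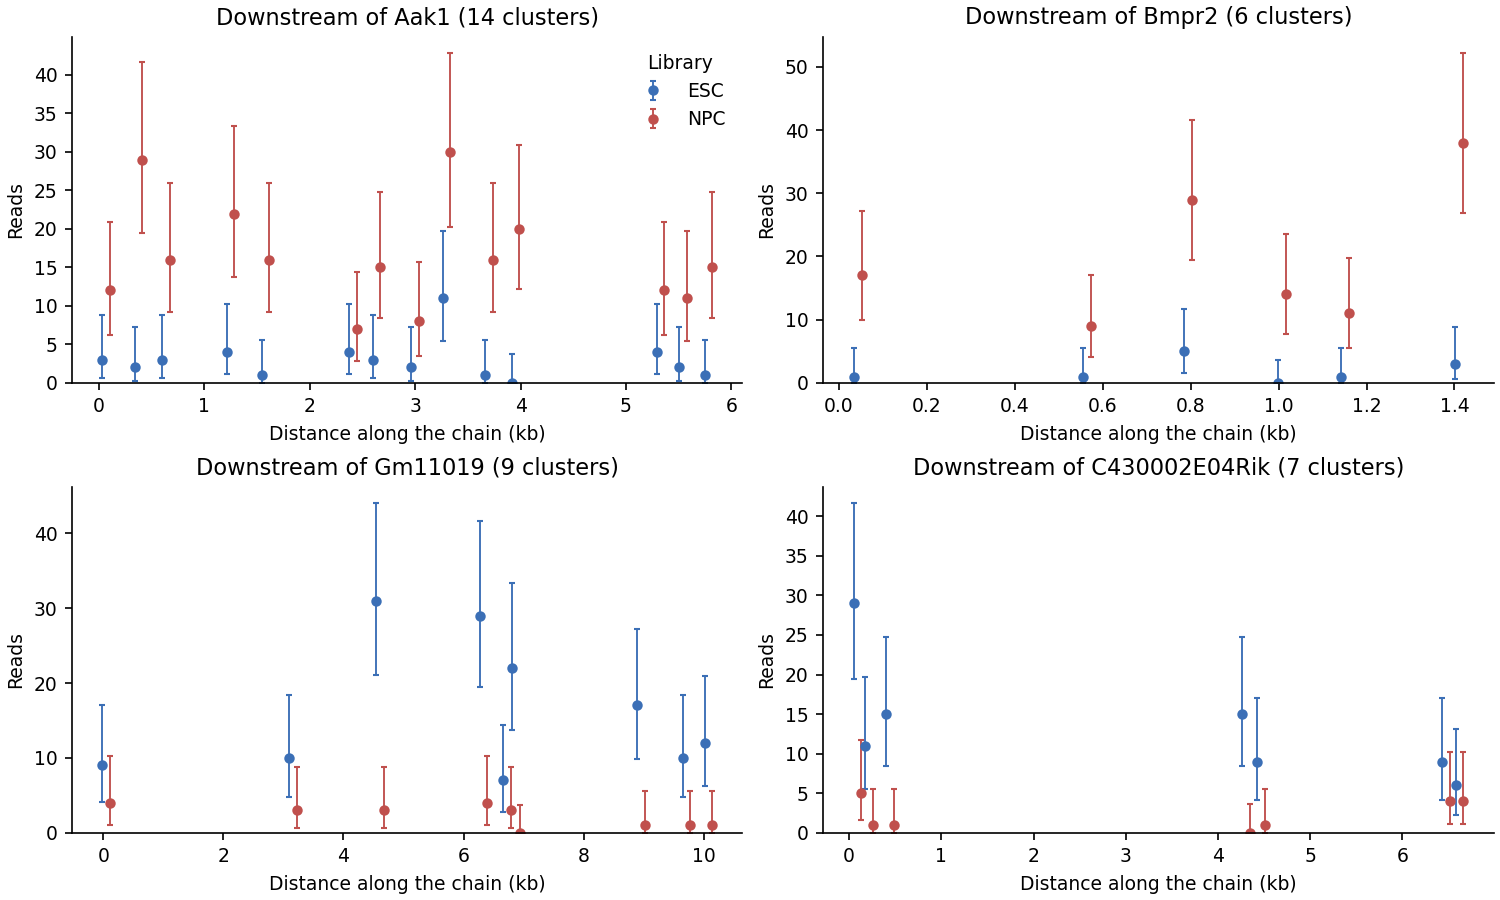
Reads of each cluster in ESC (blue) and NPC (red) along 4 chains of unmatched unique clusters, against distance along the chain in kb in the direction of transcription. Bars are exact Poisson 95% intervals, and the NPC points lie above the ESC points in every cluster of the upper chains and below them in every cluster of the lower ones.

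Chains that began within 20000 nt downstream of a gene on the same strand numbered 12. In 9 of them the log2 ratio had the sign of that gene's ratio, and in 6 it differed by less than 1. The difference of chain minus gene had a median of 0.34 and ranged from -1.88 to 2.83. Between RNA that runs on from such a gene and a separate transcript these data cannot tell apart.

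Chains were the usual arrangement of the far clusters in general. With gaps of at most 10000 nt on the same strand, 1763 clusters (76.8%, 75.04 to 78.53) lay in 477 chains of 2 or more, 275 chains had 3 or more, 123 had 5 or more, and 532 clusters stood alone. The median chain spanned 735 nt. In 403 chains all clusters were coding copies, in 328 all were copies of 1 gene, and in 326 of those 328 the clusters followed the order of the transcript. A cluster on the opposite strand within 5000 nt was found for 3.40% of the clusters.

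The chain with the most clusters was a copy of Acaca at chr12:10159001-10166453 (+) with 24 clusters over 7453 nt. It had 329 reads in ESC and 239 in NPC, a ratio of 0.705 (0.595 to 0.836), beside 418 and 276 on the gene. The next was a copy of Xpot, the tRNA exportin, at chr8:3994596-3998892 (+) with 18 clusters, 225 and 418 reads and a ratio of 1.80 (1.53 to 2.13), beside 496 and 974 on the gene. After the Aak1 chain came a copy of Arf1, a GTPase of the Golgi, at chr1:43944858-43946512 (+) with 11 clusters, 364 and 526 reads and a ratio of 1.40 (1.23 to 1.61). The fifth was a copy of Hspa8 at chr6:75246023-75248013 (-) with 10 clusters, 1453 and 1729 reads and a ratio of 1.16 (1.08 to 1.24).

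The thresholds of the rule cut through a continuum. The 173 clusters with 10 reads, just inside, had a median width of 73 nt, a median log2 ratio of -0.04 and 36.5% unique reads. The 189 otherwise alike with 9 reads had 71 nt, 0.22 and 29.5%. The 97 clusters beyond 5000 and up to 6000 nt from a gene had a median width of 94 nt, a median log2 ratio of 0.41, 29.2% unique reads and 56.7% coding copies, and the 132 at 4000 to 5000 nt had 96 nt, 0.31, 20.6% and 46.97%.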

How the data were processed

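NPA RNA of ESCs and NPCs was sequenced on the SOLiD platform, 1 library each. The authors removed poly(A) RNA, depleted ribosomal RNA in 1 round of RiboMinus, prepared fragments of 150 to 250 bp from 2 µg of RNA with 15 PCR cycles, used Bowtie to align reads to mm9 and kept reads that fit several places, and removed reads on mitochondrial, ribosomal and RepeatMasker sequence. The deposited files list 1 placed read per line, with strand and 48 nt of sequence. The Bowtie version is not given in the sources used here. Placements were counted here, so the counts are reads per cluster.

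The members and lists were chosen with earlier results of these data known. Clusters were placed against the 37310 genes of GENCODE M1. Each 48-nt sequence was looked up on both strands of the placed chromosomes and chrM of mm9, and about 4% of reads had no exact match (4.19% in ESC, 3.98% in NPC). Clusters were aligned to transcripts with BLAST+ 2.17.0 and called copies at 95% identity over 90% of their length. Repeat edges were other clusters with most reads listed under 48 nt. Exon junctions and own bases were read from exact matches to transcripts. The share of reads that fit a copy but no transcript counted only full-length reads found once in mm9. Ratios were scaled by library totals. Log2 ratios add 1 read. Shares have Clopper-Pearson intervals, counts Poisson intervals, ratios conditional binomial intervals and medians order-statistic intervals. A median depth of 23 reads per cluster limits the precision of single ratios. Named clusters are the 10 with the most reads, the 10 with the highest and the 10 with the lowest log2 ratio among those with 50 or more reads in a library, the 5 widest and the 5 chains with the most clusters, though not all are printed, and those named beyond the rule are said to be so or stand as examples of a kind. RefSeq promoters matched mm9 once for 31872 of 32851. Clustering, ratios and intervals were tested on simulated data. Scripts ran under Python 3.11.15, with pandas 2.3.3, numba 0.67.0, SciPy 1.17.1, NumPy 2.4.6 and matplotlib 3.10.9.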

Additional observations from a re-analysis of the deposited data

How the results depend on the processing

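Of 80 recomputed values, 37 stayed within their interval or within 1.5 times the count, 39 moved further and 4 median log2 ratios changed sign. The 37 include all values recomputed without random and unplaced contigs. That setting could change nothing, because 0 reads lay off chromosomes 1 to 19, X and Y. Joining reads across gaps of up to 40 bases gave a median width of 127 nt, 69.2% of clusters in chains, library shares of 1.87% (ESC) and 1.76% (NPC) and unique shares of 18.8% and 21.3%. With a minimum of 50 reads there were 577 clusters, holding 1.43% and 1.27% of the reads, with a median log2 ratio of -0.092, 89 higher in NPC and 108 in ESC, a width of 109 nt, 61.2% in chains, 54 chains of 3 or more and unique shares of 16.99% and 20.004%. At more than 1000 nt from a gene the shares were 2.43% and 2.34%, the median log2 ratio 0.19, the number higher in NPC 820, the width 94 nt, the chains 78.6% and the unique shares 22.2% and 26.6%. At more than 10000 nt the shares were 1.65% and 1.502%, with unique shares of 16.8% and 17.8%. Counting each start once gave shares of 1.23% and 1.06%, a median log2 ratio of -0.27, 161 clusters higher in NPC and 292 in ESC, and a unique share of 19.7% in ESC. Only reads found once gave shares of 0.426% and 0.428%, a median log2 ratio of -0.13, which is the value of a cluster without such reads, with 187 higher in NPC and 256 in ESC. Scaling by the reads outside the 10 largest clusters gave a median log2 ratio of 0.014, and scaling by the median of ratios gave -0.32, with 292 higher in NPC and 651 in ESC. Of the counts past the fold in this section, only those scaled by the median of ratios have a share of all clusters, given above. For the other moves the cause was not tested. No paired analysis was possible because each cell type has 1 library. Shallow clusters and shared sequence limit every ratio of a single cluster, and placements chosen by the aligner cannot be checked from these files.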
